A study of Homo sapiens with 6 samples.

Results

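GAS5 (growth arrest specific 5) is a long noncoding RNA gene on the minus strand of human chromosome 1 (chr1:173858559-173868882, hg38), and box C/D small nucleolar RNAs (snoRNAs) lie in its introns. Its positions were chosen from these measurements, with the number of 2′-O-methylation (Nm) calls in the gene already known. The gene held 426 of the 176343 positions listed under imbalanced dNTP and 376 of the 246881 positions listed under balanced dNTP, and 324 positions stood in both tables.

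Nm was profiled by Nm-mut-seq in chromatin-associated RNA (caRNA) of HepG2, a human hepatocellular carcinoma cell line with no genetic or drug treatment here, in 3 biological replicates. RNA shorter than 200 nt was removed, and after ligation 1 part of each RNA was reverse transcribed with imbalanced dNTP (1 mM dATP and 2 µM of the other dNTPs) and the other part with balanced dNTP (1 mM of each), the input. Under imbalanced dNTP, a methylated G, A or C can be copied so that the read carries T. The study also used a spike-in without Nm, copied with imbalanced dNTP, as a background for mutations that do not come from Nm. That background was not used here, and the input, copied with balanced dNTP, does not measure it. A higher share of T under imbalanced dNTP is therefore not by itself a measure of methylation. The mutation ratio is the share of reads at a position that carry T, so positions that are U in the RNA give no value.

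A box C/D snoRNA is cut out of a spliced host intron and trimmed to ends set by its bound proteins, which include the methyltransferase fibrillarin. Boxes C and D near the ends of the RNA fold together, and the stretch before box D, or before the inner copy D′, pairs with a target RNA and places the methyl group on it. GAS5 is known as a host of such snoRNAs, and its spliced exons encode no long protein. SNORD44 is a guide for 18S rRNA, and SNORD75, SNORD76, SNORD78, SNORD79 and SNORD81 are guides for 28S rRNA. SNORA103 has an H/ACA name, the class that guides pseudouridylation.

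The sequences of the 9 snoRNAs with called sites are given because almost all of the GAS5 signal lay in them. They run 5′ to 3′ from hg38 (minus strand, RefSeq gene bounds), in the order of the host gene. Capitals mark called sites whose mutation ratio reached 5% in every replicate. A called site had, in all 3 replicates, a depth of at least 10, at least 3 reads with T and a mutation ratio more than 3 times that of its input. The study's further criterion against the spike-in background was not applied. Called sites here, 29651 over the series, are therefore more numerous than the Nm sites of the study and are not the same set.
SNORD74, chr1:173867674-173867745: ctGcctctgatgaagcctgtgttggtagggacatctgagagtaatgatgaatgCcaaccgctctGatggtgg
SNORD75, chr1:173866879-173866938: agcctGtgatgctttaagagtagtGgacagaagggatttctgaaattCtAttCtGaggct
SNORD76, chr1:173866635-173866715: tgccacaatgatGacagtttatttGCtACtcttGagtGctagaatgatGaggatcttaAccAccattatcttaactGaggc
SNORD44, chr1:173865968-173866028: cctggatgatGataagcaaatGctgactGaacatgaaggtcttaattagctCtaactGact
SNORD78, chr1:173865622-173865686: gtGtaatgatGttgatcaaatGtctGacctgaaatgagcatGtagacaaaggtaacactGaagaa
SNORD79, chr1:173865350-173865430: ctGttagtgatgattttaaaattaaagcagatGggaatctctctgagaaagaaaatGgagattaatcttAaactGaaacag
SNORD80, chr1:173864833-173864903: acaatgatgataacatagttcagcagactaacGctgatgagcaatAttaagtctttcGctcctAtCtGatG
SNORD47, chr1:173864369-173864445: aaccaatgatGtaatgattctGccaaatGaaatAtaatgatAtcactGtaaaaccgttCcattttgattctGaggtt
SNORD81, chr1:173864146-173864222: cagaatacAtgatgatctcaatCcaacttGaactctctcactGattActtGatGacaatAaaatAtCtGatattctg
In every one of the 9, the G of the last CTGA, which is box D, is in capitals.

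GAS5 carried 355 called sites among the 415 of its positions that 10 or more reads covered in each of the 3 imbalanced libraries (85.5%), and 26.7% of such positions were called over the whole series. The gene was chosen on this contrast, so its share is a description and nothing is read from it. Replicates 1, 2 and 3 taken alone passed 387, 389 and 383 GAS5 positions. Across the 355 sites, the mutation ratios of replicate pairs correlated with Pearson's r of 0.929, 0.908 and 0.893, and the median absolute difference was 0.542 to 0.572 percentage points. These correlations are across positions of shared reads, which are not independent replicates.

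The listed positions were snoRNA positions, not positions of the spliced host RNA. The 11 annotated snoRNA genes cover 801 nt of the 10324 nt of GAS5, and 412 of the 426 listed positions and 352 of the 355 called sites lay inside them. They held 99.9% of the summed GAS5 depth in each imbalanced library and 99.8% in each balanced library. The 12 exons of the canonical transcript cover 766 nt outside the snoRNA genes and hold 549 G, A or C positions. Not one of these was listed under imbalanced dNTP, and 1 was listed under balanced dNTP, with depths of 6, 6 and 12. A position is listed only where reads with T were found, so an exon position with reads but no T would not appear. The name GAS5 therefore stands here for intronic snoRNAs, and the planned comparison of mutation ratios between snoRNA genes and host exons gave no value.

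**Figure D1:**
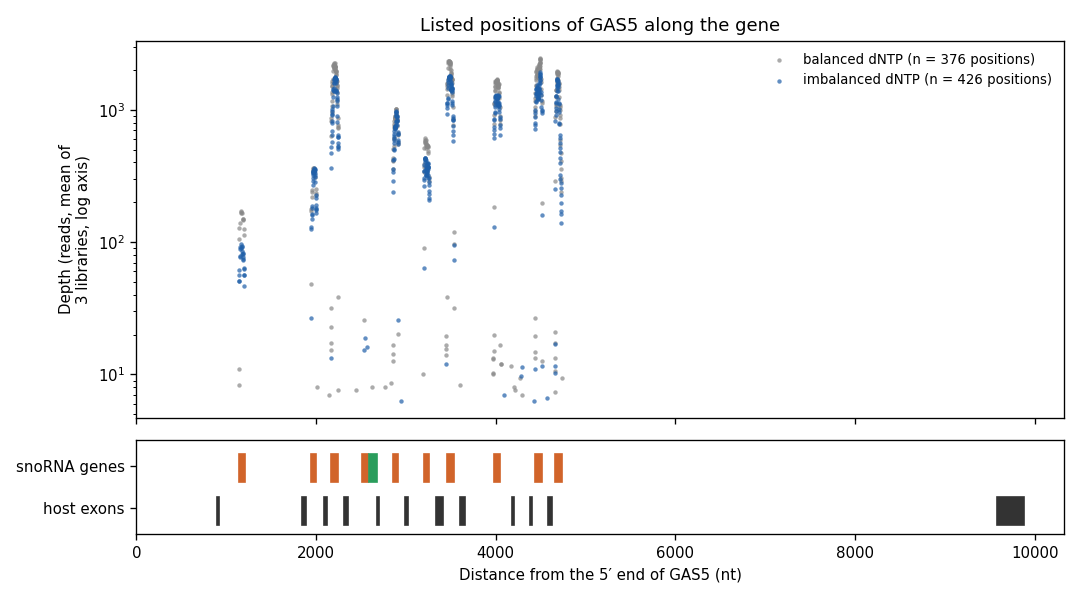
Mean depth over 3 libraries (log axis, reads) of each position listed in GAS5 against its distance from the 5′ end of the gene (nt), for 426 positions under imbalanced dNTP and 376 under balanced dNTP; the lower track shows the 12 canonical host exons and the 11 snoRNA genes, with SNORA103 in green. The deep positions form narrow columns over snoRNA genes, and no point of the imbalanced libraries lies over an exon.

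Outside the snoRNA genes, 14 intron positions were listed under imbalanced dNTP, and 8 of them lay within 2 nt of the end of a snoRNA. The other 6 lay more than 10 nt away and reached a depth of at most 23. All 3 sites called there were such edge positions. The A directly after the 3′ end of SNORD47 had mutation ratios of 9.09%, 16.9% and 10.8% at depths of 176, 130 and 176. The A 2 nt before the 5′ end of SNORD80 had 3.01%, 4.76% and 4.58% at depths of 133, 126 and 131. The A directly after the 3′ end of SNORD44 had 33.3%, 35.0% and 23.5%, at depths of only 24, 20 and 34. All 3 replicates of the SNORD44 edge were above those of the SNORD47 edge, and all 3 of these were above those of the SNORD80 edge. T accounted for 9.77% ± 2.48 (SD, n = 3) of the reads at the 4 listed intron positions covered by 10 or more reads and for 3.47% ± 0.0755 at 411 snoRNA positions. A shallow position is listed only if T was seen there. The part of the listing in this difference was not tested, and no test is read from it. At a depth of at least 50, which left 2 intron positions, the snoRNA share minus the intron share was -5.06 ± 2.21 percentage points. When the exons of all transcripts other than retained introns count as host exons, the 3 edge sites become exonic, 1 intron position is left and the difference changes from -6.31 to -0.11 percentage points.

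The depth fell sharply at or near annotated ends. Under imbalanced dNTP, the 8 listed positions 1 or 2 nt beyond an end had a median depth of 2.32% of that snoRNA's own median (range 0.824% to 12.0%), and no position 3 to 15 nt beyond an end was listed. Under balanced dNTP, 14 positions within 2 nt had a median of 1.56%, and 21 positions 3 to 15 nt beyond had 0.908%. Some falls lay inside the bounds. In SNORD81 under imbalanced dNTP, depth fell from 83.3% of its median at position 5 to 1.72% at position 3. Toward its 3′ end it declined gradually, to 14.1% at position 72. Most of the listed depth thus ended at or a few nt inside the annotated bounds of the snoRNAs. Under imbalanced dNTP, 12.0% of the median remained 1 nt after the 3′ end of SNORD47, and 11.5% remained 2 nt before the 5′ end of SNORD80. RNA shorter than 200 nt, which includes every GAS5 snoRNA, had been removed, and the route by which the snoRNAs were retained was not tested. Fewer copies of a snoRNA and fewer reads recovered per copy cannot be told apart in these libraries.

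The 11 snoRNAs differed widely in depth. SNORD79 was deepest, with a median depth of 1439 ± 74.4 (SD, n = 3) over its listed positions under imbalanced dNTP, followed by SNORD47 at 1327 ± 171, SNORD76 at 1248 ± 116, SNORD80 at 1124 ± 88.1 and SNORD81 at 987 ± 136. Neighbours among these 5 overlapped in their replicate ranges. SNORD44 had 723 ± 22.7, below all replicates of SNORD81, and SNORD78 had 350.5 ± 38.3, below all of SNORD44. SNORD75 had 306 ± 64.2, a range that overlapped with SNORD78, and SNORD74 had 76.5 ± 7.40. SNORD77 had 3 listed positions with a median depth of 16.7 ± 3.21, and SNORA103 had none under imbalanced dNTP and 1 under balanced dNTP.

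In the 6 deepest snoRNAs almost every G, A and C was called. All 50 such positions of SNORD80 were called sites, as were 49 of 51 in SNORD47, 52 of 55 in SNORD76, 54 of 58 in SNORD79, 40 of 44 in SNORD44 and 45 of 52 in SNORD81. SNORD78 had 27 of 49, SNORD75 had 26 of 41, SNORD74 had 9 of 53, and SNORD77 and SNORA103 had none of 45 and 53. These 6 had 86.5% to 100% of their positions called, and the other 5 snoRNAs had 0% to 63.4%. Of the 60 listed snoRNA positions that were not called, 53 had fewer than 3 reads with T in some replicate, and 7 failed only the comparison with input. The lowest called ratio was 4.51% in SNORD74, 1.04% in SNORD75, 1.16% in SNORD78 and 0.436% in SNORD81, so the shallow snoRNAs could show only their higher ratios.

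The share of reads with T, over the positions listed in each table, lay between 2.89% and 3.79% in the 8 deeper snoRNAs with sites and was higher in the shallow ones. In SNORD76 it was 3.69%, 3.88% and 3.81% in the 3 imbalanced libraries and 0.0996%, 0.0934% and 0.0816% in the inputs. In SNORD79 it was 2.89%, 3.00% and 2.78% against 0.0583%, 0.0893% and 0.0618%. In SNORD74, the shallowest with sites, it was 3.92%, 5.96% and 4.93% against 0.149%, 0.615% and 0.342%. The groups of imbalanced and balanced libraries did not overlap in any of the 9 snoRNAs with sites. From lowest to highest, the means were 2.89% ± 0.108 (SNORD79), 3.20% ± 0.148 (SNORD78), 3.32% ± 0.190 (SNORD75), 3.41% ± 0.0466 (SNORD44), 3.43% ± 0.0960 (SNORD80), 3.70% ± 0.173 (SNORD47), 3.79% ± 0.0945 (SNORD76), 3.79% ± 0.129 (SNORD81) and 4.93% ± 1.02 (SNORD74). Replicate ranges of neighbours were apart between SNORD79 and SNORD78, between SNORD80 and SNORD47 and between SNORD81 and SNORD74, and overlapped between all others with sites. SNORD77, with 3 of 45 positions listed, had 8.68% ± 4.31. The share is taken over listed positions, which need reads with T, and it was also higher in shallow SNORD genes outside GAS5, with medians of 3.27% at a depth over 1000, 5.18% between 50 and 100 and 9.23% under 50. The place of SNORD74 and SNORD77 in this order therefore goes with their depth. Over the 314 snoRNA positions listed in both tables and covered by 10 or more reads, the share with T under imbalanced dNTP was 3.54%, 3.62% and 3.46%, which was 43.6, 37.3 and 46.1 times the balanced share of the same replicate. These positions were listed for their reads with T under imbalanced dNTP, so the fold is a description of listed positions only.

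**Figure D2:**
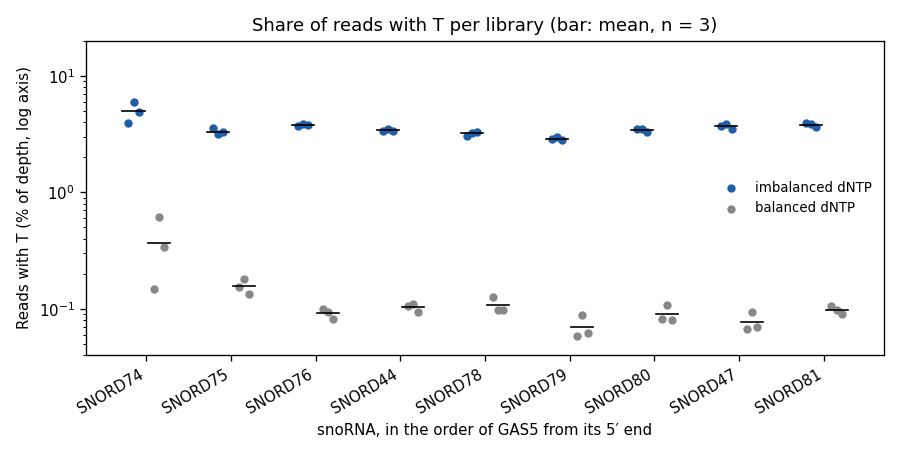
Share of reads with T (% of depth, log axis) in each of the 9 snoRNAs with called sites, in host order; blue points are the 3 imbalanced libraries, grey points the 3 balanced libraries and bars their means. The imbalanced values lie between 2.78% and 5.96%, above all balanced values.

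Other mismatches differed far less between the dNTP supplies. Reads with neither the reference base nor T made up 0.256% of the SNORD80 depth under imbalanced dNTP and 0.259% under balanced dNTP, and 0.267% and 0.257% of the SNORD47 depth (means of 3 libraries). In SNORD75 the shares were 0.333% ± 0.0582 and 0.262% ± 0.00523, the widest gap among the 9. Within replicates, the share was higher under imbalanced dNTP in 3 of 3 pairs of libraries in SNORD75 and SNORD44, in 2 of 3 in 5 snoRNAs and in 1 of 3 in the other 2.

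In edgeR's quasi-likelihood fit over the series, 318 GAS5 positions were covered by 10 or more reads in each of the 6 libraries. The mutated share was higher under imbalanced dNTP at 301 of them and lower at 0, against 73.9% higher and 0.0558% lower over the 32284 positions tested. The median log2 difference was 5.04 over the GAS5 positions and 3.94 over all positions. These counts rest on the contrast that chose the gene and are given as a description. All 50 tested positions of SNORD47 and all 43 of SNORD80 were higher, as were 20 of 25 in SNORD78 and 3 of 7 in SNORD74.

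The 17 positions that were not higher lay mainly at edges or in shallow snoRNAs. SNORD81 position 3 had mutation ratios of 11.8%, 18.8% and 11.1% under imbalanced dNTP, and its 2, 4 and 3 reads with T of 18, 18 and 27 under balanced dNTP were as high. SNORD76 position 2 likewise had 18.2%, 16.7% and 23.5%, with 6, 3 and 2 reads with T among 47, 25 and 23 input reads. Both positions had depths under 20 in each imbalanced library, while the nearby SNORD76 position 3 had a mean depth of 360. SNORD79 position 1, a C, was listed only under balanced dNTP, where 5, 3 and 4 of 45, 36 and 35 reads carried T. T was thus also found in the inputs near the 5′ ends of these 3 snoRNAs.

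The mutation ratios formed sharp peaks within each snoRNA. The highest site was a G preceded by U in all 9. SNORD75 position 6 was the highest in a snoRNA, with 16.7%, 19.2% and 16.5% at depths of 174, 151 and 127, and it was not listed under balanced dNTP. SNORD78 position 22 had 15.5%, 13.9% and 16.5%, against 0.125%, 0% and 0.192% in the inputs. SNORD47 position 22 had 12.9%, 14.5% and 12.5%, against 0.167%, 0.303% and 0.0485%. SNORD76 position 25 had 10.2%, 10.4% and 11.9%, against 0.154%, 0.388% and 0.194%. In these 4 snoRNAs the highest site lay in the 5′ part of the RNA. A ratio of 10% in every replicate was reached by 9 GAS5 sites, of which 7 were G and 2 were A: SNORD75 position 50 (12.4%, 12.2% and 17.7%) and the edge position after SNORD44.

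**Figure D3:**
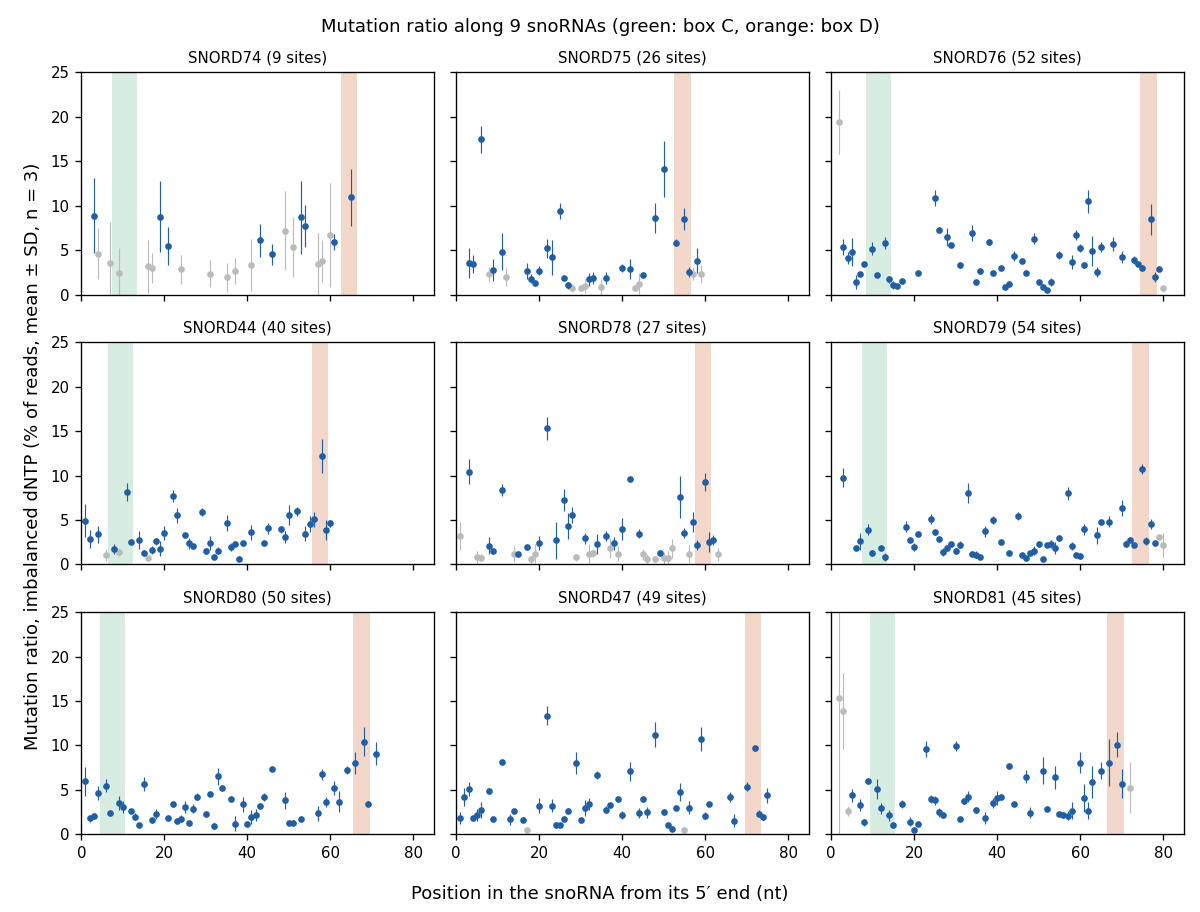
Mutation ratio under imbalanced dNTP (% of reads, mean ± SD over 3 replicates) against the position from the 5′ end (nt) in the 9 snoRNAs with called sites; blue points are called sites, grey points listed positions that were not called, green bands box C and orange bands box D. Most points lie under 5%, and a peak stands in the orange band of every panel.

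The G of box D was the highest called site of the other 5 snoRNAs. Box D was taken as the last CTGA that begins within the last 20 bases of the gene, sense strand only, and all 10 SNORD genes of GAS5 held it; so did 167 of the 173 other SNORD genes with a listed position (96.5%), and 8.62% of the 20-base windows of GAS5 outside its snoRNAs. In SNORD44, the box D G (position 58) had 13.1%, 10.0% and 13.5%, against 0%, 0% and 0.189% in the inputs. In SNORD79 (position 75) it had 11.4%, 10.5% and 10.3%, against 0.0994%, 0.533% and 0%. In SNORD80 (position 68) it had 12.3%, 9.94% and 9.12%, against 0.0876%, 0% and 0%. In SNORD81 (position 69) it had 10.8%, 11.0% and 8.50%, and in SNORD74 (position 65) 9.43%, 8.70% and 14.6% at depths of 53, 46 and 41.

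The box D G was measured in 9 snoRNAs and called in all 9, with mean ratios from 8.45% to 12.2% (median 10.1%). The box D C was called in 8 of 8, from 2.17% to 8.06% (median 5.21%), and the box D A in 8 of 8, from 1.96% to 5.69% (median 2.59%). No box D base of SNORD77 was listed under imbalanced dNTP, nor the C and A of SNORD74, so these are not counted. Of all listed positions in the snoRNA genes, 352 of 412 were called, so the counts of called box D bases are not read as a result about box D. In each snoRNA with all 3 bases, the mean of G was above those of C and A.

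**Figure D4:**
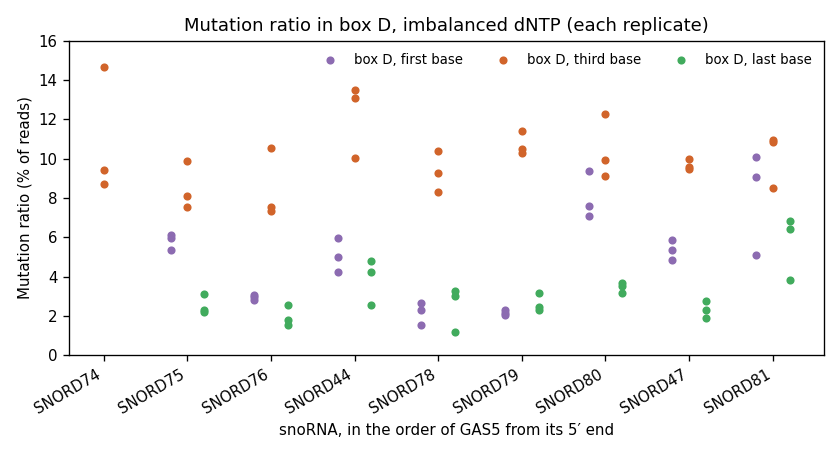
Mutation ratio (% of reads) at the C, G and A of box D (in the plot the first, the third and the last base) in the 9 snoRNAs with called sites; each point is 1 of 3 imbalanced libraries, and the U gives no value. The G points lie between 7.32% and 14.6%, and those of C and A are lower except where C and G points overlap in SNORD80 and SNORD81.

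The same 4 letters elsewhere in the GAS5 snoRNAs had lower ratios. At a depth of at least 100, the 8 box D G averaged 10.4%, 9.99% and 9.41% in the 3 libraries, and the G of 8 CTGA outside box D averaged 4.85%, 5.07% and 4.85%. The difference was 5.00 ± 0.499 percentage points. In all 6 snoRNAs that held both kinds at this depth, the box D G was above every other CTGA G in each replicate. In the other SNORD genes, the box D G had a median of 7.67% over 76 positions (quartiles 5.10% and 10.5%), and the GAS5 values had a median of 9.89%, within that range. The G of CTGA had a median of 4.24% at 292 other listed positions, 3.99% at 103 positions of NEAT1 and 4.35% at 29 positions of MALAT1, both long nuclear noncoding RNAs. Box D stands near the 3′ end, where the last 10 nt of the 7 snoRNAs with at least 90% of their G, A and C listed averaged 4.77% ± 0.104 over 43 positions. Without the 7 box D G, the other 36 positions there averaged 3.73% ± 0.115, against 3.39% ± 0.0936 in the middle and 3.92% ± 0.129 in the first 10 nt.

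Where the exact letters of box C were found, they held no peak shared by all of these snoRNAs. The letters TGATGA were found within the first 25 bases of 6 of the 10 SNORD genes of GAS5, of 108 of the 173 others (62.4%) and of 0.551% of the 25-base windows outside the snoRNAs. The first G of box C had a median of 4.48% over 6 snoRNAs, and the second G had 3.51% over 5 (range 1.87% to 8.19%, the highest in SNORD44). The A after the first G had 2.18% and the last A 1.73%. Absence of the exact letters in SNORD47, SNORD75, SNORD77 and SNORD78 says only that this window did not hold them. SNORD47 and SNORD78 hold the near match TGATGT, and its second G reached 5% in every replicate in both. In SNORD47 (position 11) this G had 8.01%, 8.00% and 8.48%. The highest site of SNORD75, position 6, directly precedes the near match TGATGC. The values above leave these near matches out.

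The ratios differed by base and by neighbouring base in the same 7 snoRNAs, which are the 6 deepest and SNORD78 (317 called of 359 G, A and C positions). Over the 348 positions covered by 10 or more reads, the mean ratio was 4.97%, 5.23% and 5.00% for 93 G, 2.95%, 3.08% and 2.86% for 175 A, and 3.47%, 3.44% and 3.39% for 80 C. G was above A in 3 of 3 replicates, by 2.10 ± 0.0750 percentage points (two-sided exact permutation test on pairs, p = 0.25, adjusted p = 0.25 over 6 comparisons). With 3 pairs this test can give no p below 0.25, so its p-values here cannot decide for or against a difference. Positions with U on both sides averaged 5.90% ± 0.198, those with U only 5′ 5.28% ± 0.0941, those with U only 3′ 3.05% ± 0.107 and those without U 2.44% ± 0.0890. The gap between U on both sides and no U was 3.45 ± 0.158 points in the same direction in 3 of 3 replicates (exact p = 0.25, adjusted p = 0.25). The replicate ranges of these 4 flank classes did not overlap.

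The spread by neighbouring U was widest at G. A G between a pair of U averaged 9.46% ± 0.455 (9 positions), a G with U only 5′ 6.35% ± 0.0664 (48 positions) and a G without U 2.18% ± 0.243 (27 positions). For C the corresponding values were 4.01% ± 0.150, 4.34% ± 0.332 and 2.64% ± 0.103. The balanced share with T was between 0.0651% and 0.113% in each of the classes of base and flank. Of the 355 called sites, 40 had U on both sides (11.3%), which is close to 11.0% of the 498 G, A and C positions of the GAS5 SNORD genes. Among the 64 sites that reached 5% in every replicate, 39 were G and 20 had U on both sides (31.2%). In the other called sites of the series, 17.3% had U on both sides, and 36.5% of those that reached 5% did, so this rise was not particular to GAS5.

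Compared with the sites of the rest of the series, GAS5 sites were deeper and lower. Their median mutation ratio was 3.14% at a median lowest depth of 903, against 4.14% at 284 for the other 29296 sites. A was the most frequent base (173 of 355, 48.7%), as among the G, A and C positions of the GAS5 SNORD genes (46.4% A). G made up 28.2% of the sites here and 40.2% elsewhere. Among sites that reached 5% in every replicate, G made up 60.9% here and 62.2% elsewhere, so the gap in G was not seen at that ratio. Among SNORD genes of like depth, GAS5 did not stand apart. The 4 GAS5 snoRNAs with a median depth over 1000 had 93.1% to 100% of their G, A and C called and shares with T of 2.89% to 3.79%, and the 15 others of that depth had 45.9% to 100% and 2.74% to 4.11%. Between 300 and 1000, the ranges were 55.1% to 90.9% for 4 GAS5 snoRNAs and 16.7% to 98.2% for 43 others.

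**Figure D5:**
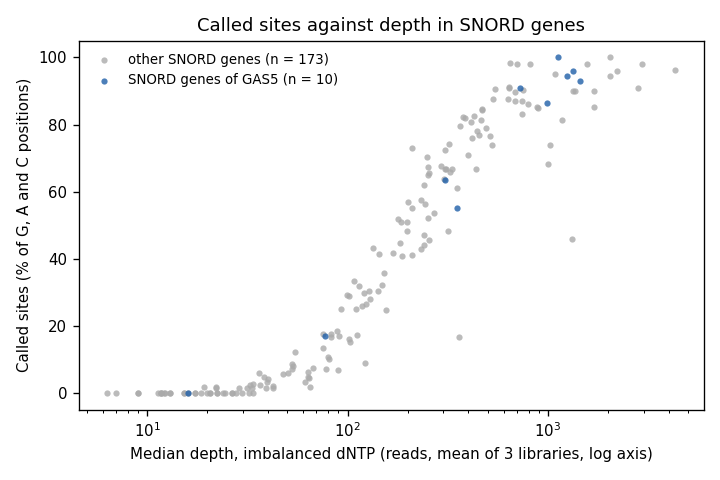
Called sites as a share of G, A and C positions (%) against median depth under imbalanced dNTP (reads, mean of 3 libraries, log axis) for the SNORD genes with a listed position, 10 of GAS5 (blue) and 173 others (grey). The GAS5 points lie among the grey ones, from 0% at the lowest depth to 100% in SNORD80.

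In most other snoRNA host lncRNAs, too, the called sites lay mainly in snoRNA genes. Of 17 listed hosts, 16 had called sites, and 1768 of their 1810 sites lay in snoRNA genes. SNHG1 had all of its 370 sites and SNHG3 all of its 310 in snoRNA genes, as GAS5 had 352 of 355. The share was lower in SNHG29 (72 of 83), DANCR (7 of 10), SNHG14 (21 of 42) and SNHG20 (0 of 1).

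Depth is known only at listed positions. It summed to 17063930 to 22485865 reads in the imbalanced libraries and 22974020 to 34367262 in the balanced ones, of which GAS5 held 1.68% to 1.96% and 1.41% to 1.53%. Of 8 hepatocyte markers, ALB, AFP, APOA1, APOB, SERPINA1 and TF had listed positions, and FGB and TTR had 0. No listed position lay on the plus strand of GAS5. Among near copies of the snoRNA genes elsewhere in hg38, the closest matched SNORD81 at 95.9% identity, and no copy held a listed position. The study's further criterion against an unmethylated spike-in was not applied here, and mutation ratios are not stoichiometries of methylation.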

How the data were processed

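Per the labels and the study's methods, the authors trimmed adapters (Cutadapt), dropped duplicates sharing a unique molecular identifier, mapped reads to hg38 with TopHat2 and found mutations with JACUSA; versions are not given in the sources used here. The deposited tables hold counts of reads with each base, with the reference base and in all (depth), per position and library; a deposited score column was not used. Replicate numbers paired the libraries, since each replicate's ligated RNA was divided (deviations over 24432 positions had r of 0.746, 0.590 and 0.871 for the same number, but replicates 1 and 2 were not told apart, with 0.699 and 0.599 across them). Mapping allowed reads of several places, which can share reads between copies. Positions unlisted in the balanced table were given an input ratio of 0; 70 called sites of GAS5 rest on this.

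snoRNA genes came from RefSeq (GRCh38.p14), because the GENCODE release 44 annotation used held 0 snoRNA genes within GAS5. edgeR 4.0.16 (R 4.3.3) tested reads with T and other reads over all positions, with library effects, a replicate block and Benjamini-Hochberg adjustment at 0.05. It was also run on simulated counts that had only binomial error and no variation between replicates. That run cannot show the error rate in the real libraries. Alternatives were Fisher's exact test and DESeq2 1.42.0. Named sites were the highest called site of each snoRNA, box C and box D bases, and called sites outside snoRNA genes. Members and lists were chosen with earlier results of these data known. The depth at a position limits the precision of its ratio, in counting error only.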

Additional observations from a re-analysis of the deposited data

How the results depend on the processing

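Of 66 alternatives to these results, 54 kept the value within a set tolerance, 12 moved it and 0 reversed it. The tolerance for counts was wide, since 285 against 355 sites and 266 against 301 positions counted as kept. Among the 54, 11 were host exon counts that stayed at 0. The count of 355 called sites in GAS5 was 351 at a depth of at least 50, 325 with at least 5 reads with T, 340 at more than 5 times input, 360 with pooled input, 285 when only positions listed under balanced dNTP counted, and 361 to 373 without one replicate. A minimum mutation ratio moved it most, to 64 at 0.05 and 9 at 0.1, with 62 and 8 in snoRNA genes and 1 in the rest of the introns at 0.1. With exons of all transcripts other than retained introns, the 3 edge sites counted as exonic, which left 3 in host exons and 0 in the rest of the introns; with snoRNA genes extended by 10 nt, the rest of the introns had 0. The share of U on both sides was 31.2% at 0.05 and 44.4% at 0.1, against 11.3% without a minimum. The snoRNA share with T minus that of the rest of the introns, an alternative to the host exon comparison added after the data were seen, was -8.88 points with positions weighted equally and -0.11 points with exons of all transcripts, which leaves 1 intron position, and no value remained with snoRNA genes extended. The comparison with host exons could not be made in its main form, and it was not run under other settings. Positions with a higher mutated share numbered 301 with the replicate block and 309 with no replicate block, 300 by DESeq2, 266 by Fisher's exact test in each replicate, and 276 to 284 without one replicate. The cause of the moved values, beyond the stricter criterion or changed class itself, was not tested. Of the 60 listed snoRNA positions that were not called, 44 lay in SNORD74, SNORD75 and SNORD78, and the depth of unlisted positions is not known.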
